A study of Homo sapiens with 6 samples.

Results

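The regions described here are strong CTCF binding sites that lie far from H3K27ac in human neurons. The neurons were grown from neural progenitor cells of the line KOLF2.1J, which is an induced pluripotent stem cell line. Sites were selected on measured values: one was taken where the authors' CTCF signal value was at least 200 and no H3K27ac peak lay within 5 kb of the interval. Of 43430 distinct CTCF intervals on chromosomes 1 to 22 and X, 4896 met the rule, which is 11.3%. The other strong intervals had H3K27ac nearer: 2551 shared bases with an H3K27ac peak, and 1445 had a peak within 5 kb without overlap. The remaining intervals far from H3K27ac, 19423 in number, had a signal value under 200. Together, 56% of all CTCF intervals were far from H3K27ac. The signal value and the distance to H3K27ac chose the sites, so both are given as descriptions.

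The series holds 6 libraries of chromatin immunoprecipitation sequencing (ChIP-seq), 2 with a CTCF antibody, 2 with an H3K27ac antibody and 2 input controls. All came from the same line and cell type, and the labels name no treatment or genotype. The wider study searched for regulatory elements of MAPT, the gene for the microtubule-associated protein tau. Each antibody had 1 deposited peak list for both replicates, so the spread between replicates is unknown, no test between classes of site was possible, and the depth behind each value is unknown. H3K27ac peaks overlapped all 12 neuronal marker genes examined, such as TUBB3, STMN2 and RBFOX3, and all 7 progenitor markers. They overlapped 3 of 4 astrocyte, 2 of 4 oligodendrocyte, 2 of 4 pluripotency and 3 of 6 liver and muscle markers. ALB, NANOG, POU5F1 and AQP4 were among those without a peak. Of all protein-coding genes, 31.0% were without an H3K27ac peak. Overlap was thus common, and these counts alone do not identify the cell type.

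CTCF is a zinc finger protein that binds a long, directional DNA motif. It halts the cohesin complex as cohesin extrudes loops of chromatin, and loops most often form between a pair of sites whose motifs point towards each other. CTCF can also separate enhancers from promoters, and its binding is reduced at some sites by methylation of cytosines in the motif. H3K27ac marks active promoters and enhancers, so a CTCF site far from it has neither in its vicinity by that mark.

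Sequences were available for promoter windows, which run from 250 bases before to 50 bases after a gene start (RefSeq, GRCh38.p14). The summits of 88 of the sites fell in such a window, 38 at protein-coding genes and 50 at long non-coding RNA (lncRNA) genes. The windows were searched on both strands for 12 letters of the core of the CTCF motif. The pattern was CC, 3 free letters, AG, 2 free letters and GGC, so that 7 letters were fixed. The examples below show 30 bases around the match nearest to the summit, written 5′ to 3′ in the direction of the motif, with the 12 matched letters in capitals. They were chosen to show the range of genes and of signal values, after their values were seen.

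The first set holds protein-coding genes, in falling order of signal value, because each of these starts carried strong CTCF without acetylation nearby.
SEMA3B: aagaagcagCCGCGAGGGGGCagcagagac
ABR: gctgtgcggCCGCCAGATGGCgctggggag
MC5R: cgtgctgggCCACTAGGTGGCagcggaggc
ABLIM3: ccggtgcgtCCAGCAGGTGGCagcagcgag
STEAP1: cgcggggcgCCAGCAGGTGGCgctggacgc
MAP7: cgcacctgcCCGCGAGGGGGCgcgccaggc
TACR1: ccacgcactCCGCGAGGGGGCagtaggtgg
CLDN1: gccctgaaaCCGCCAGGGGGCgctccccgg
TGFB1: ggcgcttggCCGCCAGGAGGCagcaccctg
KCNT1: ccggcgcggCCGGCAGGGGGCgcgcgcgga
WNT1: gactagcatCCGCCAGGGGGCgcggcgaga
These genes have diverse roles. SEMA3B encodes a secreted semaphorin that guides axons, and ABLIM3 an actin-binding LIM protein. MAP7 binds microtubules, KCNT1 is a sodium-activated potassium channel, and TACR1 is the receptor for substance P. WNT1 and TGFB1 are secreted signalling proteins, CLDN1 is a tight-junction protein, and MC5R is a melanocortin receptor. Fixed letters of the core were the same in each by construction, and the free letters varied.

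The SEMA3B sequence is chr3:50273077-50273106 on the minus strand, opposite to the gene. Its CTCF interval, chr3:50272841-50273337, had a signal value of 363.4, its summit lay 32 bases before the gene start, and the nearest H3K27ac peak was 7.10 kb away. The ABR sequence is chr17:1187361-1187390 on the minus strand, the strand of the gene, under an interval with a signal value of 358.6. The WNT1 sequence is chr12:48978137-48978166 on the minus strand, opposite to the gene, and belongs to a weaker interval with a signal value of 206.4. H3K27ac was 8.47 kb from it. The TACR1 site had H3K27ac no nearer than 121 kb, the ABLIM3 site no nearer than 171 kb and the KCNT1 site no nearer than 101 kb, so among starts with a strong CTCF site the surrounding stretch without acetylation varied widely.

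The second set holds lncRNA genes, which supplied 50 of the 88 promoter windows with a strong distant site. They supplied 87 of 563 for strong sites overlapping H3K27ac and 106 of 300 for weaker distant sites. Their share of all promoter windows was not counted.
LINC02551: gccttgaggCCGGAAGGTGGCgctgttgct
LOC101927583: ctctgcactCCACCAGGGGGCggcagcggc
IL2RB-AS1: cagaagttgCCACCAGAGGGCagtgcgcgc
LOC105369808: agctcaaggCCAGCAGATGGCgcgtggcgt
LOC101927369: cagtgattgCCAGTAGATGGCgcaatgggc
LINC01570: aggaagcggCCACCAGGTGGCgtgtgcgcc
LINC02944: cacggatggCCACTAGATGGCgtgtgacaa
The LINC02551 interval, chr11:130861857-130862404, had the highest signal value of the 88, at 400.6, and H3K27ac lay 30.4 kb away. Its window held 2 matches in the same direction. Both are in capitals in the 250 bases before the gene start, chr11:130862111-130862360 on the minus strand, shown because the summit, base 238 of this stretch, lay directly before the match nearest the start.
LINC02551 upstream: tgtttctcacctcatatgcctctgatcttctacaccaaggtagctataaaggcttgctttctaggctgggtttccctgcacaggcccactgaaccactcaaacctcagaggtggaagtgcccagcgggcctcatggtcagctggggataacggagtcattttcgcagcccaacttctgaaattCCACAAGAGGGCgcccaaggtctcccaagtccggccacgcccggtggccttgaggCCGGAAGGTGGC
In all, 8 of the 88 windows held 2 or more matches within 100 bp of the summit.

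The core motif was found within 100 bp of the summit in 53 of the 88 sites, which is 60.2% (95% Wilson interval 49.8 to 69.8%). Wilson intervals here and below cover counting error only. They hold no spread between replicates, so whether intervals meet is a description and not a test. Across all 2788 CTCF intervals with a summit in a promoter window the share was 27.2%. It was 40.9% in 563 strong sites overlapping H3K27ac (interval 36.9 to 45.0%), 59.5% in 42 strong sites within 5 kb of it (interval 44.5 to 73.0%) and 33.0% in 300 weaker sites far from it (interval 27.9 to 38.5%). The interval of the distant strong sites did not meet that of the overlapping or the weaker sites. It met that of the strong sites within 5 kb, so the share was not particular to the distant ones. Promoter windows without a CTCF summit, searched at the same positions, held the letters in 5.64% of 31751 cases, and 10.6% of all promoter windows held them anywhere. Within protein-coding promoters alone, 22 of 38 distant strong sites had the core (57.9%, interval 42.2 to 72.1%), against 40.5% of 476 overlapping sites (interval 36.2 to 45.0%). Those intervals met, and whether the shares differ within protein-coding promoters was not tested. Of the 35 sites without a match, 13 had a looser pattern within 30 bp of the summit, in which the first 5 letters are free and AG, 2 free letters and GGC follow. This is a pattern that 20.2% of windows without a CTCF summit also held there. IL12A, an interleukin subunit gene, and WNT2B, a WNT ligand gene, were examples, shown with the 12 looser positions in capitals.
IL12A: ctctctacgTCGGCAGGGGGCgctgcacag
WNT2B: gcatgtgaaACACCAGGGGGCgcaagtaag
No match says only that these letters were not in the window.

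The matches lay close to the summits. The nearest match was a median of 6.5 bp from the summit, with quartiles of 2.5 and 12.5 bp, and 47 of 53 matches (88.7%) were within 30 bp. Read in the direction of the motif, the centre of the core lay 5′ of the summit in 36 of 47 sites (76.6%, interval 62.8 to 86.4%), by a median of 5.5 bp. In weaker sites far from H3K27ac the core was 5′ of the summit in 42 of 88 (47.7%, interval 37.6 to 58.0%), and the intervals did not meet. The share was 66.3% in strong sites overlapping H3K27ac (132 of 199, interval 59.5 to 72.5%) and 66.7% in those within 5 kb (16 of 24, interval 46.7 to 82.0%), and these intervals met that of the distant strong sites.

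**Figure D1:**
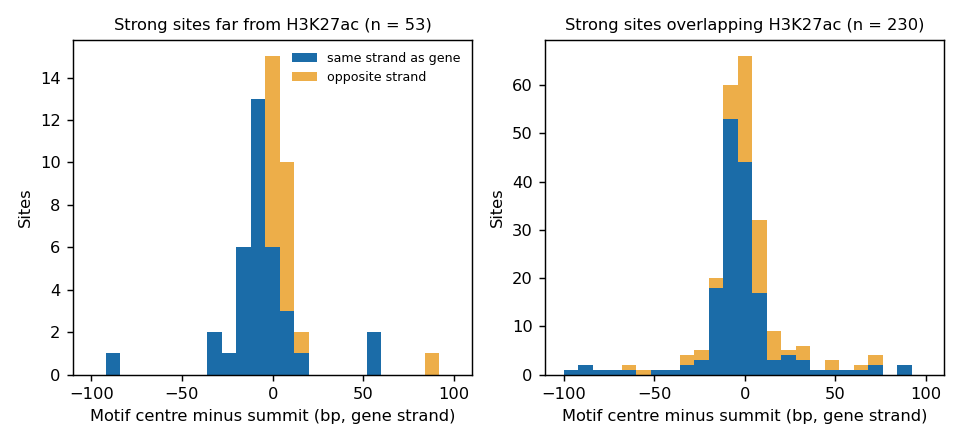
Distance in bp from the CTCF summit to the centre of the nearest core motif match, on the strand of the gene, for strong CTCF sites with a summit in a promoter window. The left panel shows the 53 sites far from H3K27ac and the right panel the 230 sites overlapping it, in bins of 8 bp. Colours give the strand of the motif, and in the left panel most matches sit within a few bins of 0.

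The direction of the motif against the gene was counted where a match lay within 30 bp of the summit. Of 46 distant strong sites with matches in a single direction, 30 had the motif on the strand of the gene and 16 on the opposite strand (65.2% on the gene's strand, interval 50.8 to 77.3%). The share was 76.9% in 173 strong sites overlapping H3K27ac (interval 70.1 to 82.5%) and 72.3% in 83 weaker distant sites (interval 61.8 to 80.8%). It was 45.8% in 24 strong sites within 5 kb (interval 27.9 to 64.9%). In windows without a CTCF summit, 52.1% of 2924 matches were on the gene's strand. The interval of the distant strong sites reached down to 50.8% and so held that background.

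The letters left free by the search were then counted in the 46 distant strong sites with exactly 1 match within 30 bp. Positions are counted from 1 at the 5′ end of the core. Position 3 was an adenine in 25 sites (54.3%, interval 40.2 to 67.8%) and a guanine, which makes a CpG with the letter before it, in 16 (34.8%, interval 22.7 to 49.2%). In 190 strong sites overlapping H3K27ac the shares were 30.5% (interval 24.4 to 37.4%) and 43.2% (interval 36.3 to 50.3%). The adenine share was 46.5% in weaker distant sites (interval 36.3 to 57.0%) and 52.2% in 23 strong sites within 5 kb (interval 33.0 to 70.8%), so it was not particular to the distant strong sites. The guanine shares there were 23.3% and 30.4%. Position 9 was a thymine in 22 distant strong sites (47.8%, interval 34.1 to 61.9%), as in ABLIM3 and MC5R, against 15.8% of the overlapping sites (interval 11.3 to 21.6%) and 24.4% of 86 weaker distant sites (interval 16.6 to 34.5%). The thymine interval of distant strong sites did not meet that of overlapping sites, and it met that of weaker distant sites at its edge. In the strong sites within 5 kb the thymine share was 26.1% (interval 12.5 to 46.5%), which it also met. Base composition also differed between the classes. Over all windows with a summit, not only those counted here, median GC content was 60.8% for distant strong sites and 66.7% for overlapping sites. It was 64.8% for weaker distant sites and 63.3% for strong sites within 5 kb. The part of base composition in these differences was not tested.

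The signal values of the sites ran from 200.04 to 465.7, with a median of 252.0 and quartiles of 224.2 and 289.0. The strong sites overlapping H3K27ac had a median of 265.0. Among sites with a value of 200 to 250, 58.8% were far from H3K27ac (interval 57.2 to 60.3%). The share fell with each step of 50, to 53.7% at 250 to 300, 50.8% at 300 to 350 and 46.1% at 350 to 400. At 400 and above it was 37.9%, 22 of 58 sites (interval 26.6 to 50.8%). The share that overlapped H3K27ac went from 24.7% in the lowest class to 46.6% in the highest. The sites were also uniform in shape. Their widths ran from 408 to 774 bp with a median of 472 bp, none had the width of 800 bp that 33.5% of all CTCF intervals share, and all carried the highest −log10 q value of the list, as 68.4% of all did. The other strong sites were alike in both. The summit lay a median of 4 bp from the centre of the interval.

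**Figure D2:**
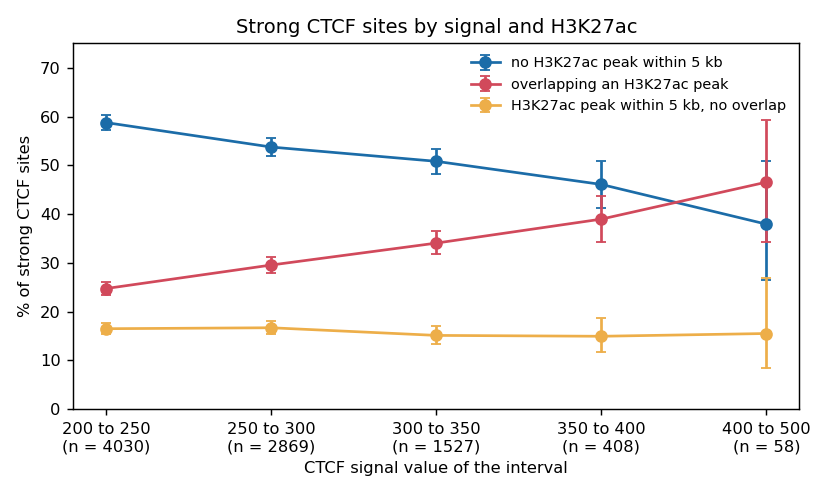
Percent of strong CTCF sites in 3 classes of distance to H3K27ac (vertical axis) by CTCF signal value (horizontal axis), with 95% Wilson intervals and the number of sites in each signal class. The share far from H3K27ac falls from 58.8% to 37.9% while the share overlapping it rises from 24.7% to 46.6%, and the last class holds only 58 sites.

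The rule's edge cut through a continuous range. The lowest signal values among the sites were 200.04 in ENDOU on chromosome 12 (chr12:47717478-47717929), 200.04 between PSMB9 and HLA-DMB on chromosome 6, and 200.06 between SEMA3E and SEMA3A on chromosome 7. The highest values left out were 199.997 in GNA11 and 199.996 in the lncRNA gene LINC02808. In distance, the nearest sites kept lay 5.002 kb from H3K27ac in SYT8, 5.003 kb between PHYHIP and POLR3D and 5.004 kb in BMAL1. The strong sites left out most narrowly lay 4.984 kb away in QSOX1 and 4.981 kb away between PDGFRB and CDX1.

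The strongest sites were mostly outside protein-coding genes. The highest value, 465.7, belonged to chr9:133022278-133022805 between GFI1B, a transcriptional repressor of blood cells, and GTF3C5, a subunit of an RNA polymerase III factor. H3K27ac lay 7.18 kb away on the higher-coordinate side and 77.1 kb away on the other. The next, chr22:36856263-36856818, had a value of 451.881 and lay in the lncRNA gene NCF4-AS1 between PVALB, a calcium-binding protein of fast-spiking interneurons, and NCF4. The third, chr17:34199860-34200395, had a value of 451.880 between the acid-sensing channel gene ASIC2 and the chemokine gene CCL2. A site in the lncRNA gene SLC25A25-AS1, chr9:128117520-128118071, had a value of 447.9, with H3K27ac 9.26 kb and 9.19 kb away on its 2 sides.

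The following 5 sites were also among the 10 strongest. A value of 441.3 was found between GBX1, a homeobox gene, and ASB10 (chr7:151172449-151173030), and a value of 437.5 between GCM1 and ELOVL5 (chr6:53171776-53172331). A site between TDRD9 and LOC124903408, chr14:104077861-104078437, had a value of 432.8. MICAL3, a flavoprotein that disassembles actin, held the only site of the 10 inside a protein-coding gene, with a value of 423.7 (chr22:17829923-17830431). The last, between SND1 and the leptin gene LEP, had a value of 423.6 (chr7:128209664-128210194). The nearest H3K27ac peaks of the sites named here lay between 7.18 and 74.2 kb away.

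Over all 4896 sites the nearest H3K27ac peak was a median of 23.4 kb away, with quartiles of 11.7 and 47.6 kb. The weaker distant CTCF intervals had a median of 29.2 kb, and on 21 of 23 chromosomes the strong sites had the lower median. No H3K27ac lay within 50 kb of 1165 strong sites (23.8%, interval 22.6 to 25.0%), against 32.6% of weaker distant sites (interval 32.0 to 33.3%) and 17.3% of all CTCF intervals. This share was lower in the strong sites on 23 of 23 chromosomes. The farthest 5 were in or near genes of diverse kinds. A site in COL22A1, a collagen gene on chromosome 8, had no H3K27ac for 1107 kb, and another between COL22A1 and KCNK9 had none for 812 kb. A site in the lncRNA gene LOC101928272, between GATA3 and CELF2 on chromosome 10, was 678 kb from H3K27ac. Sites between FLRT2 and GALC on chromosome 14 and between ANKRD7 and KCND2 on chromosome 7 were 476 and 462 kb from it.

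**Figure D3:**
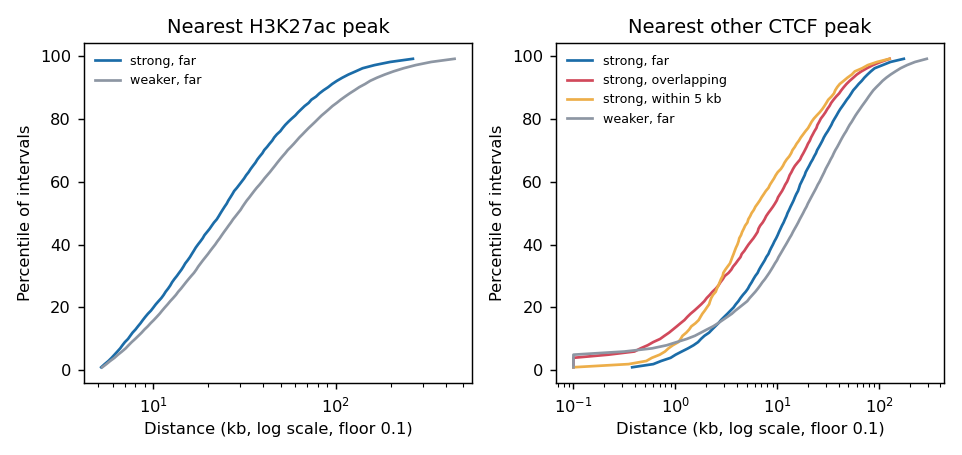
Distance in kb on a log scale (horizontal axis) against the percentile of intervals (vertical axis) for the nearest H3K27ac peak (left) and the nearest other CTCF peak (right), with distances under 0.1 kb drawn at 0.1. Strong sites far from H3K27ac reach their median at 23.4 kb and 12.6 kb, and weaker distant sites at 29.2 kb and 18.0 kb.

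Of the sites, 2257 overlapped a protein-coding gene interval (46.1%, interval 44.7 to 47.5%), against 56.6% of all CTCF intervals. Another 590 overlapped only an lncRNA gene (12.1%), 60 only a gene of another type, and 1989 no gene (40.6%, interval 39.3 to 42.0%), against 31.3% of all CTCF intervals without a gene. Strong sites overlapping H3K27ac met a protein-coding gene in 63.5% of cases (interval 61.6 to 65.3%), and this share was above that of the distant sites on 22 of 23 chromosomes. The difference was absent when the summit alone had to lie in the gene: the shares were then 44.8% and 44.6%, with intervals of 43.4 to 46.2% and 42.7 to 46.6%. It therefore rested on intervals that cross a gene end with their summit outside. Gene starts were where the sets differed. Chromosome 8 had no listed starts. On the 22 chromosomes with listed starts, 87 of 4688 distant strong sites (1.86%, interval 1.51 to 2.28%) had a summit within 1 kb of a protein-coding start, against 34.9% of the overlapping sites (interval 33.1 to 36.8%) and 14.7% of all CTCF intervals. H3K27ac marks active starts, so this share depends on the distance rule and is a description. The weaker distant sites, which were held to the same distance rule, had 2.99% (interval 2.76 to 3.25%).

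Where a distant strong site did lie within 2 kb of a protein-coding start, its summit was upstream of the start in 111 of 149 cases (74.5%, interval 66.9 to 80.8%). Weaker distant sites were upstream in 52.6% of 781 cases (interval 49.1 to 56.1%), and the intervals did not meet. The strong sites overlapping H3K27ac were upstream in 75.6% of 974 cases (interval 72.8 to 78.2%), and those within 5 kb in 72.5% of 138 (interval 64.5 to 79.2%). The median distance to the nearest protein-coding start was 37.1 kb for the distant strong sites and 52.7 kb for the weaker distant sites.

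**Figure D4:**
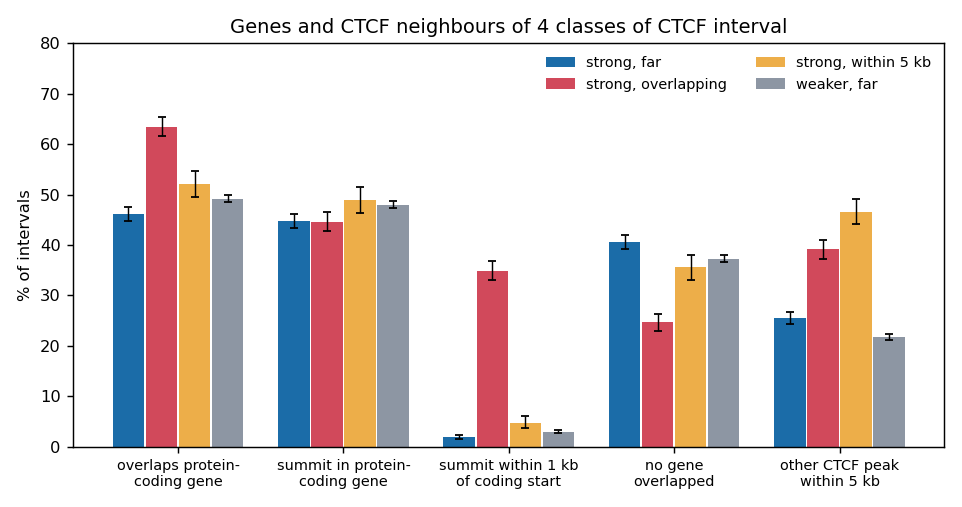
Percent of CTCF intervals (vertical axis) with each feature in 4 classes, coloured by signal and distance to H3K27ac, with 95% Wilson intervals. The classes overlapping and far from H3K27ac differ by overlap with a protein-coding gene (63.5% and 46.1%) but not by summit in the gene (44.6% and 44.8%), and 34.9% against 1.86% lie within 1 kb of a coding start.

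Another CTCF peak was near less often than in the list as a whole. The nearest lay a median of 12.6 kb away, and 1245 of the 4896 sites (25.4%, interval 24.2 to 26.7%) had another CTCF peak within 5 kb, against 33.7% of all CTCF intervals. The share was 39.1% in strong sites overlapping H3K27ac (interval 37.2 to 41.0%) and higher there on 22 of 23 chromosomes. It was 21.8% in weaker distant sites (interval 21.2 to 22.4%) and 46.6% in strong sites within 5 kb of H3K27ac (interval 44.1 to 49.2%). Only 20 of the sites overlapped another CTCF interval, and none overlapped another site of the set. The nearest peak of a signal value of at least 200 was a median of 57.0 kb away.

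Stretches of chromosome between neighbouring H3K27ac peaks held 1 site in most cases: 3073 sites (62.8%, interval 61.4 to 64.1%) were alone in theirs, and 3852 stretches held any. The most in a stretch was 7, and 2 stretches held that many. On chromosome 1, 7 sites lay across 808 kb from 157155957 to 157964051, with values of 218.5 to 387.8, over FCRL1 to FCRL5 and CD5L. These encode Fc receptor-like proteins of B cells and a secreted macrophage protein. On chromosome 10, 7 sites lay across 150 kb around TLX1, a homeobox gene, with values of 219.2 to 338.2. They were 7 of 8 CTCF intervals listed there, in a stretch of 229 kb without H3K27ac. The 7 sites on chromosome 1 were among 19 listed CTCF intervals. Stretches of 6 sites tied for the next place. One on chromosome 17 held DLX3 and DLX4, a homeobox gene pair, with values of 218.5 to 296.1. Another on chromosome 17 held NOS2, LGALS9 and KSR1 (values 203.7 to 329.1), and one on chromosome 19 held a group of CEACAM cell adhesion genes (values 225.5 to 358.4). For the DLX, NOS2 and CEACAM sites the listed CTCF intervals numbered 7, 10 and 18. Over all CTCF intervals 11.3% were distant strong sites, and 4896 of the 24319 intervals far from H3K27ac were strong. These stretches were chosen for holding the most.

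Counted by gene, 1941 of 19970 protein-coding genes held at least 1 site, 299 held at least 2 and 3 held at least 5. The genes with a site were long, with a median length of 82.8 kb against 24.2 kb for all protein-coding genes. No H3K27ac peak overlapped 438 of them (22.6%), against 31.0% of all protein-coding genes. The part of gene length in this difference was not tested. RANBP2, a nucleoporin gene with a listed interval of 1123 kb, held 6 among its 15 CTCF intervals. NRXN3, a presynaptic adhesion gene, held 5 of its 18 CTCF intervals as distant strong sites. RBFOX3, which encodes the neuronal splicing factor NeuN, held 5 of 12. One of these, chr17:79658820-79659272, had its summit 73 bases before an RBFOX3 start, a signal value of 202.4 and no core match, with H3K27ac 36.2 kb away. The remaining places were tied at 4 sites, and ARHGAP26 and CDH23 came first by name. The genes were ranked by this count, so it is no sign of enrichment. Over all CTCF intervals the share of distant strong sites was 11.3%.

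A list of 20 long genes held mostly neuronal adhesion and synaptic genes, and also RBFOX1 and MACROD2, which are neither. Of the 20 genes, 11 held 20 of the sites, out of 215 CTCF intervals (9.30%, against 11.3% of all CTCF intervals). Its interval of 6.10 to 13.9% held the share of the list as a whole. Of the 25 strong sites in these genes, 80% were distant (interval 60.9 to 91.1%), against 55.1% of all strong sites. NRXN3 had values of 200.4 to 351.4. PTPRD, a receptor phosphatase of synapses, had 3 sites with values of 200.2 to 249.9, and CNTNAP2, an axonal adhesion gene, had 2 with values of 226.0 and 300.9. CTNNA2 and DLG2 also had 2 each. RBFOX1 had a single site with a value of 298.2. CDH13, MACROD2, DSCAM and CSMD1 had 1 each.

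The 39 HOX genes, which pattern the body axis, met 16 CTCF intervals. Of these, 4 were distant strong sites (25.0%, interval 10.2 to 49.5%, against 11.3% of all CTCF intervals), and no other interval in these genes was strong. The interval of the share held 11.3%. The sites lay in HOXA3 (signal value 284.2), HOXA13 (205.3), HOXB6 (211.8) and HOXD13 (283.5), none of which overlapped an H3K27ac peak. The HOXA3 summit was 30 bases before a start of the gene, and 122 kb from H3K27ac, with no core match in the window. The 53 clustered protocadherin genes met 28 CTCF intervals, of which 2 were strong and none was a distant strong site. For this count of 0 of 28 the Wilson interval reached up to 12.1%, and so held the 11.3% of all CTCF intervals. The 517 zinc finger genes held 17 of the sites among 392 CTCF intervals (4.34%, interval 2.73 to 6.83%), below the 11.3% of all CTCF intervals. Of their 73 strong sites, 23.3% were far from H3K27ac (interval 15.1 to 34.2%), against 55.1% of all strong sites. The 390 olfactory receptor genes held 1 of 23 (interval 0.77 to 20.99%). Among 12 imprinted genes GNAS held 1 of 30, with a value of 234.0 (interval 0.59 to 16.7%). Both of these intervals held 11.3%.

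No distant strong site lay in MAPT. The nearest on the lower-coordinate side was chr17:45852643-45853124 in the antisense lncRNA gene MAPT-AS1, 41.4 kb from the MAPT interval, with a signal value of 260.6 and H3K27ac 40.8 kb away. Within 1 Mb of MAPT, 25 strong CTCF sites were listed and 13 were far from H3K27ac, a share near the 55.1% of all strong sites. Of these 13, 11 were on the lower side and 2 on the higher. How all CTCF peaks were spread over the sides was not counted. Their values ran from 203.3 to 366.6, the highest in ARHGAP27, and H3K27ac was 10.1 to 110 kb from them.

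The share of strong sites that were far from H3K27ac was 55.1% over the genome and ranged from 42.7% on chromosome 19 to 67.9% on chromosome 21, with a median of 57.0% over chromosomes. Chromosome 19 held 205 of the sites, chromosome 16 held 156 (43.6% of its strong sites) and chromosome 22 held 100 (44.1%). Chromosome 18 was near the upper end, with 120 sites (67.8%). Chromosome X contributed 29 sites. Its CTCF intervals reached the signal minimum in 4.29% of cases, against 14.1 to 26.9% on the autosomes, so the rule drew few sites from it, and its share far from H3K27ac was 54.7%.

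**Figure D5:**
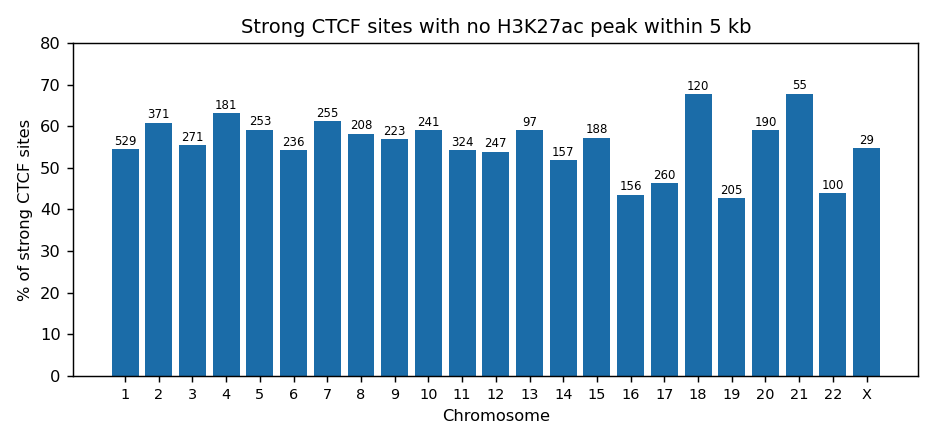
Percent of strong CTCF sites with no H3K27ac peak within 5 kb (vertical axis) on each chromosome (horizontal axis), with the number of such sites above each bar. The shares run from 42.7% on chromosome 19 to 67.9% on chromosome 21.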

How the data were processed

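Formaldehyde-fixed, sonicated chromatin was used, per the labels' protocols. The submitters' processing notes name hg38 and cutadapt 1.16. The aligner and peak caller are not given in the sources used here. Each deposited list covers both replicates. The authors' CTCF signal value was read as a score whose scale is not stated. The deposited H3K27ac signal was read, from its values, as a fold enrichment (ratio). Both deposited lists give −log10 q values, judged from their layout.

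Python 3.11.15, pandas 2.3.3 and statsmodels 0.14.6 were used. Intervals listed more than once (214 entries) were kept once, with the highest signal. Gene intervals and promoter sequences were those of RefSeq on GRCh38.p14, the build that hg38 names. Distances run between interval edges. A motif was counted when its centre lay within 100 bp of the summit, in the part a promoter window covers. For a median site, 201 bases were searched. Distance and motif functions were tested on simulated data.

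The sites and gene lists were chosen with earlier results of these data known. Named sites are the 10 strongest, the 5 farthest, the edges of the rule, those around MAPT, the 5 genes with most sites and the 3 longest runs. Wilson intervals are at 95%. No test was run, because intervals are not replicates. Promoter motifs replaced the planned search at every site, and motif pairs were not analysed here. Some sites and genes that the naming rule gives are not reported here.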

Additional observations from a re-analysis of the deposited data

How the results depend on the processing

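No paired analysis was possible because replicates share 1 list per antibody. Leaving out a replicate could not be run either. The share of neighbouring pairs with converging motifs and its alternatives were also not run. Among 27 alternatives, 14 gave a value inside the interval (for counts, within 1.5 times) and 12 moved it. The remaining 1 counted as reversed by its sign only: the difference was then absent, at 0.16 percentage points. Alternatives chosen after seeing the data were the motif within 30 bp, protein-coding promoters only and both for the difference in gene overlap. The number of sites (4896) was 7976 at a signal value of at least 150 and 2528 at 250. The share of strong sites far from H3K27ac (55.1%) was 57.3% at a minimum of 150, 52.0% at 250, 63.2% with none within 2 kb and 44.1% with none within 10 kb. The difference from strong sites overlapping H3K27ac in overlap with a protein-coding gene (-17.4 percentage points) became 0.16 when the summit had to lie in the gene, and -21.4 at a signal minimum of 250. The median distance to H3K27ac (23.4 kb) was 34.2 kb to the stronger 50% of its peaks, as a shorter list must give. For CTCF neighbours (12.6 kb) it was 57.0 kb to strong peaks and 23.1 kb to the stronger 50%. The motif share (60.2%) was 20.5% with a stricter pattern (CCAC, 1 free letter, AG, 2 free letters, GGC) and 88.6% with the looser one. Windows without a CTCF summit held these in 0.20% and 47.7% of cases. The 88 promoter sites are 1.88% of those on chromosomes with listed starts and may not stand for the rest.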
